A study of Rattus norvegicus with 48 samples.

Results

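The comparison of 28 with 14 days of low dose thioacetamide (TAA) used 12 of the 48 liver miRNA-seq libraries of the series: 3 of low dose at 28-d, 3 of low dose at 14-d and 3 of vehicle controls at each time. The libraries were taken by their labels and not by a measured value, though the comparison was chosen with earlier results of these data known. The quantity tested was the difference of treatment effects, that is the log2 fold change of low dose against controls at 28-d minus the same log2 fold change at 14-d. A negative difference means that the level relative to the controls was lower at 28-d than at 14-d. It was tested for the 301 mature miRNAs with at least 5 RPM (reads per 1000000 reads of the library) in at least 3 of the 48 libraries.

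All rats were male Sprague-Dawley animals. The low dose rats received TAA at 4.5 mg/kg once daily for 14 or 28 days and the controls received vehicle over the same time. Each library is the liver of a separate rat, 3 of the 5 rats per condition, so the p-values measure the spread between rats. RNA came from a small piece of liver with all its cell types, in which fewer cells of a type and less RNA per cell cannot be told apart.

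TAA is a hepatotoxic and hepatocarcinogenic compound that hepatocytes convert to reactive metabolites, and repeated dosing leads to cell injury and fibrosis. A miRNA is a short RNA that guides a silencing complex to mRNAs, mainly through its seed, bases 2 to 8 from the 5′ end. miRNAs with the same seed can pair with the same sites. The Dlk1-Dio3 region is an imprinted locus whose maternally expressed RNAs carry a large cluster of miRNAs, abundant in the embryo and low in adult liver.

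The sequences that the results turn on are given below, 5′ to 3′, with the seed in capitals, from the RefSeq annotation of the rat assembly GRCr8. The first 4 are the Dlk1-Dio3 miRNAs with a lower effect at 28-d. Their seeds differ from each other, and what they share is the locus on the plus strand of chromosome 6.
miR-434-3p (chr6:134330451-134330472): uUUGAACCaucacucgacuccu
miR-127-3p (chr6:134328510-134328531): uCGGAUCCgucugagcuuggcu
miR-541-5p (chr6:134578434-134578458): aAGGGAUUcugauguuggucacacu
miR-411-5p (chr6:134544604-134544624): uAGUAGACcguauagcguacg

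The next are pairs with a common seed, in each of which at least 1 miRNA was called higher at 28-d before adjustment. The seed of miR-19a-3p and miR-19b-3p is the same, as is that of miR-100-5p and miR-99b-5p. miR-99b-5p, with a difference of 1.08, was not called. miR-501-3p has the seed of miR-500-3p, whose difference was -0.45 (edgeR, adjusted p = 0.470).
miR-19a-3p (chr15:98588179-98588201): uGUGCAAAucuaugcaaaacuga
miR-19b-3p (chr15:98588486-98588508): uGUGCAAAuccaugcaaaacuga
miR-100-5p (chr8:50798307-50798328): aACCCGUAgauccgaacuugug
miR-99b-5p (chr1:67350070-67350091): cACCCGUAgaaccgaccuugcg
miR-501-3p (chrX:17927239-17927261): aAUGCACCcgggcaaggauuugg
miR-500-3p (chrX:17930695-17930716): aAUGCACCugggcaaggguuca

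The last set are further miRNAs whose result depended on a single library, low dose 28-d replicate 29: the p53 target miR-34a-5p, and let-7a-5p with miR-98-5p, which share the let-7 seed. Results for miR-19a-3p, miR-19b-3p, miR-100-5p, miR-99b-5p and miR-501-3p above depended on this library as well. Of the 301 miRNAs tested, 270 were matched by name to a mature sequence of RefSeq.
miR-34a-5p (chr5:165815971-165815992): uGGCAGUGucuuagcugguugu
let-7a-5p (chr8:50805219-50805240): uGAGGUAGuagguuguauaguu
miR-98-5p (chrX:24460663-24460684): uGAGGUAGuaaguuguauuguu

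Total counts of the 12 libraries were between 7665439 and 14373693 (median 10107355.5). The limit of detection was set at 3 counts, which is between 0.209 and 0.391 RPM, for counting error only. Hepatocyte miRNAs were high in all 12 libraries, with miR-122-5p at 27360 to 62120 RPM and miR-192-5p at 182400 to 258700 RPM. Among markers of other tissues, miR-1-3p and miR-206-3p (muscle), miR-216a-5p and miR-217-5p (pancreas) and miR-124-3p (brain) were at or near 0, the highest value being 0.402 RPM. Other members of these lists were present, with miR-133a-3p of the muscle list at 1.03 to 12.5 RPM and miR-375-3p of the pancreas list at 248 to 403 RPM.

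The 3 low dose 28-d libraries did not resemble each other equally. Over the 301 miRNAs, Pearson's r of log2 (RPM + 1) was 0.992 between replicates 28 and 30, 0.977 between 28 and 29 and 0.979 between 29 and 30. In each of the other 3 groups of the comparison it was between 0.992 and 0.996. Outside the comparison the lowest r within a group was 0.976 in middle dose 3-d, 0.977 in high dose 7-d and 0.978 in high dose 3-d. It was 0.885 in the 3-d controls and at least 0.9878 in the remaining groups. Replicate 29 had r between 0.991 and 0.993 with the low dose 14-d libraries, while replicate 28 had r between 0.974 and 0.977 with them.

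Replicates 28 and 30 in turn had their highest r outside their own group with middle dose libraries, but the 28-d controls were close. With middle dose 14-d r was 0.988 to 0.991 for replicate 28 and 0.992 to 0.994 for replicate 30. With the 28-d controls it was 0.986 to 0.988 and 0.983 to 0.988. For replicate 28 the range with middle dose 28-d, 0.987 to 0.988, lay within that with the 28-d controls. The library nearest to replicate 30 among the other 47 was a middle dose 14-d library, with r = 0.994. The nearest to replicate 28 was replicate 30. A nearest library from another group also occurred elsewhere. Examples are 28-d control 16 (high dose 3-d, r = 0.996) and low dose 14-d replicate 40 (low dose 7-d, r = 0.996). miR-100-5p, scaled over all 48 libraries, was at 928 and 880 normalized RPM in replicates 28 and 30 and at 114 in replicate 29. The low dose libraries of the 3 earlier times were between 127 and 391, and the middle dose libraries at 14-d and 28-d between 926 and 1441. Replicates 28 and 30 were thus at or just below the middle dose range for this miRNA, and replicate 29 was below every other low dose library. A mix-up of labels was not tested. The 3 labels were kept. The counts of the difference and the miRNAs described below are given for the 3 libraries and also without replicate 29 or with replicate 29 alone, both chosen after the data were seen. In the last the lone rat is assumed to vary like the other groups. Replicate 29 was set apart because it resembled the low dose 14-d libraries. Leaving it out therefore tends to enlarge the difference and narrow the spread. The p-values and counts of calls without it are descriptive only.

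**Figure D1:**
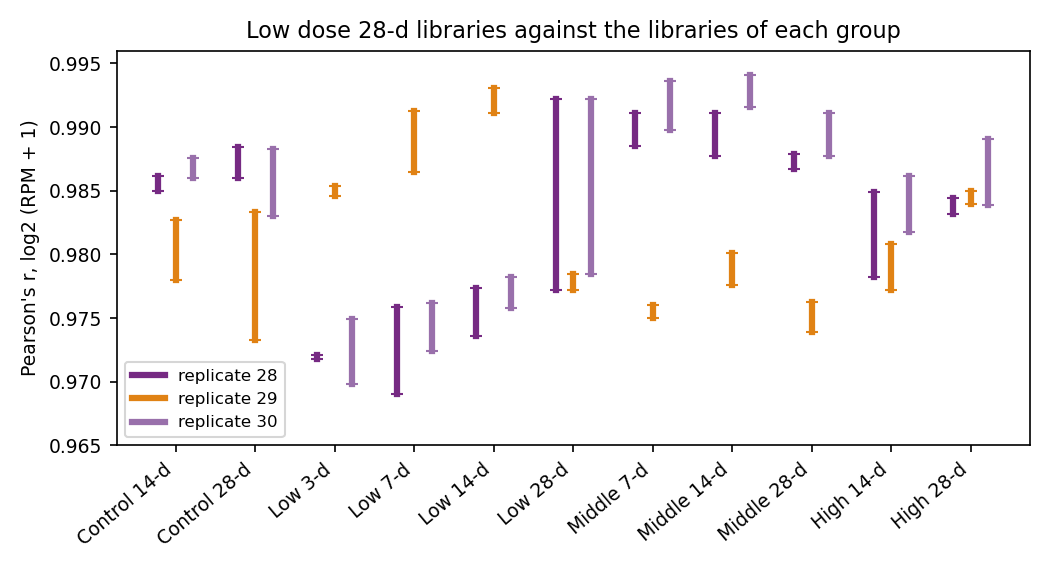
Pearson's r of log2 (RPM + 1) over 301 miRNAs (vertical axis) between each low dose 28-d library and the libraries of 11 groups (horizontal axis), where a bar spans the lowest and highest r. Replicate 29 lies highest against low dose 14-d, while replicates 28 and 30 lie high against middle dose groups and low against low dose 14-d. The axis does not start at 0.

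At 14-d, low dose TAA changed 68 of 301 miRNAs (22.6%) at an adjusted p-value under 0.05 and with a fold change over 1.5, by edgeR's quasi-likelihood test with Benjamini-Hochberg adjustment. Low dose levels were above the controls for 53 and below for 15. With TMM normalization, which scales by a trimmed mean of ratios in place of the upper quartile, the split was 29 higher and 30 lower, so the excess of higher calls depends on the scaling. The study's methods call a miRNA differentially expressed (a DEM) by a p-value below 0.05 and a fold change over 1.5 and name no adjustment, so the p-value before adjustment was used here. By this rule 94 miRNAs (31.2%) were DEMs, 70 higher (23.3%) and 24 lower.

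At 28-d the same test called 5 miRNAs (1.66%). miR-34a-5p was higher, with a log2 fold change of 3.87, and miR-26a-5p, miR-122-3p, miR-434-3p and miR-10a-5p were lower, by -0.70, -1.01, -2.35 and -0.60. There were 41 DEMs (13.6%), 16 higher and 25 lower. The split turned with the scaling, to 27 higher and 9 lower with TMM normalization, 29 and 10 with DESeq2's size factors and 31 and 7 with library size alone. Without replicate 29 the adjusted calls at 28-d were 17 (5.65%), and with replicate 29 alone they were 53 (17.6%), with 42 higher and 54 lower DEMs.

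The sets of DEMs at the 2 times, which come from different libraries, overlapped in part. 8 miRNAs were higher DEMs at both times, 11.43% of the 70 at 14-d and 50% of the 16 at 28-d. For lower DEMs 9 were shared, 37.5% of the 24 and 36% of the 25. Without replicate 29, 5 higher DEMs were shared (7.14% of 70 and 26.32% of 19) and 7 lower ones (24.14% of 29 and 25% of 28).

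The difference of treatment effects itself was past the adjusted threshold for 2 of 301 miRNAs (0.664%), both lower at 28-d: miR-434-3p and miR-127-3p. There were 35 DEMs of the difference (11.6%), 27 lower (8.97%) and 8 higher (2.66%). Before adjustment, 41 miRNAs had a p-value under 0.05. The median difference over all 301 miRNAs was -0.23 on the log2 scale with upper quartile scaling and 0.06 with TMM normalization. With TMM normalization the DEMs were 6 lower (1.99%) and 21 higher (6.98%), so a majority in either direction is a matter of scaling.

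14 DEMs were past the threshold under all 4 scalings tried (upper quartile, TMM, DESeq2's size factors, library size alone). All 8 higher ones were among them, and 6 of the 27 lower ones: miR-127-3p, miR-324-3p, miR-411-5p, miR-434-3p, miR-541-5p and miR-6329. miR-434-3p alone passed the adjustment under all 4.

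Without replicate 29 the number past the adjusted threshold was 68 (22.6%), 18 higher and 50 lower, and the DEMs were 102 (33.9%), 25 higher (8.31%) and 77 lower (25.6%). Here too the split depended on the scaling, with adjusted calls of 25 higher and 17 lower with TMM normalization, 26 and 16 with DESeq2's size factors and 37 and 10 with library size alone, and DEMs of 40 and 41, 43 and 40, and 55 and 21. With replicate 29 alone it was 0 (0%), with 21 DEMs (6.98%) and 23 miRNAs with a p-value under 0.05 before adjustment. In that fit 20 DEMs were lower (6.64%) and 1, miR-193a-5p, was higher.

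Of the 27 lower DEMs of the difference, 20 were DEMs at 14-d and 3 at 28-d, and without replicate 29 these were 49 and 13 of 77. In 16 of the 27 the effect had the opposite sign at the 2 times. The difference contains both effects, so these counts describe its makeup and test nothing. The change between low dose 28-d and 14-d was larger than that between the controls in 24 of the 27 and in 6 of the 8 higher ones.

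The low dose rats at 28-d against those at 14-d gave 29 adjusted calls (9.63%) and 74 DEMs (24.6%), 17 higher and 57 lower. With TMM normalization these were 37 higher and 20 lower. The controls at 28-d against 14-d gave 0 adjusted calls (0%) and 20 DEMs (6.64%) in edgeR's test, with 36 miRNAs having a p-value under 0.05 before adjustment. limma with voom also gave 0 and DESeq2's Wald test gave 4 (miR-29b-3p, miR-802-5p, miR-195-5p, miR-31a-5p).

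**Figure D2:**
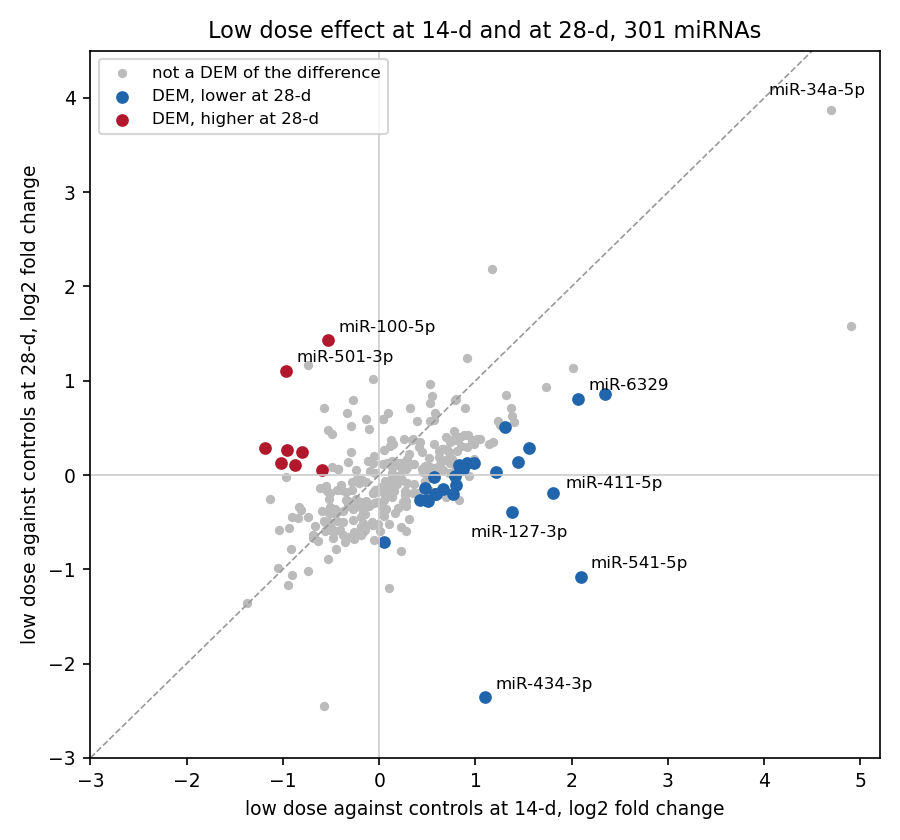
Log2 fold change of low dose against controls at 14-d (horizontal axis) and at 28-d (vertical axis) for 301 miRNAs, with DEMs of the difference in blue (lower at 28-d) and red (higher at 28-d), and a dashed line where both effects are equal. miR-434-3p, miR-541-5p, miR-411-5p and miR-127-3p lie to the right of 0 and below 0, and miR-34a-5p lies high at both times.

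Of 6 Dlk1-Dio3 miRNAs tested, 4 were higher DEMs at 14-d (23.3% over all 301), 3 of them past the adjustment, and none at 28-d, where miR-434-3p was lower. In these 4 the 3 low dose 28-d libraries, replicate 29 included, were all below the 3 low dose 14-d libraries. 4 of the 6 were lower DEMs of the difference (8.97% over all 301), and the median difference of the 6 was -1.88, beside -0.23 over all 301. The median was -2.16 without replicate 29, -1.46 with replicate 29 alone and -1.60 with TMM normalization, and the number of lower DEMs was 4 each time, beside 25.6%, 6.64% and 1.99% over all 301.

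miR-434-3p, a strand of a hairpin within the imprinted cluster, was at 2.503, 3.75 and 4.74 normalized RPM in the 14-d controls and at 5.52, 6.24 and 11.8 in the low dose rats at 14-d. In the 28-d controls it was at 4.81, 2.76 and 5.32, and in the low dose rats at 28-d at 0.486, 1.14 and 0.870, which are 6, 12 and 13 reads. Every low dose 14-d value was above every 14-d control, and every low dose 28-d value was below every library of the other 3 groups. The difference was -3.45 ± 0.58 (SE) on the log2 scale, with an adjusted p-value of 0.0153 in edgeR's quasi-likelihood test with Benjamini-Hochberg adjustment. It was lower in 27 of 27 alternatives, with adjusted p-values from 1.29e-05 to 0.166. Without replicate 29 it was -3.70 and with replicate 29 alone -2.98 (adjusted p = 0.166).

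miR-127-3p, another miRNA of the cluster, was at 11.2, 11.1 and 9.23 normalized RPM in the 14-d controls and at 25.1, 23.5 and 33.4 in the low dose rats at 14-d. At 28-d it was at 14.3, 11.03 and 6.68 in the controls and at 7.61, 9.13 and 7.90 in the low dose rats. The groups did not overlap at 14-d and overlapped at 28-d. The difference was -1.77 ± 0.36 (SE), adjusted p = 0.0442 by the same edgeR test. The low dose effect was 1.38 at 14-d (adjusted p = 0.00507) and -0.39 at 28-d (adjusted p = 0.383). Over 28 of 28 alternatives the sign was the same, with adjusted p-values from 0.00295 to 0.262. The difference was -1.86 without replicate 29 and -1.62 with replicate 29 alone.

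miR-541-5p was at 0.300, 1.15 and 1.28 normalized RPM in the 14-d controls, at 2.23, 3.17 and 6.53 in the low dose 14-d rats, at 1.504, 1.29 and 0.818 in the 28-d controls and at 0.243, 0.761 and 0.736 in the low dose 28-d rats. These rest on few reads, 22 over the 3 low dose 28-d libraries. The low dose groups lay on opposite sides of their controls, without overlap. The difference was -3.17 ± 0.81 (SE) and did not pass the adjustment (edgeR, adjusted p = 0.176), while without replicate 29 it did (-3.37, adjusted p = 0.0177). With replicate 29 alone it was -2.79.

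miR-411-5p was at 2.70, 3.46 and 4.74 normalized RPM in the 14-d controls and at 11.04, 11.4 and 15.9 in the low dose 14-d rats. At 28-d it was at 2.56, 1.21 and 3.00 in the controls and at 1.54, 3.14 and 1.27 in the low dose rats. The groups were apart at 14-d and overlapped at 28-d. The difference was -1.99 ± 0.56 (SE), adjusted p = 0.208 in edgeR's test, -2.46 without replicate 29 (adjusted p = 0.00711) and -1.30 with replicate 29 alone.

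The other 2 tested members, miR-136-3p and miR-136-5p, had differences of -0.93 ± 0.78 and 0.07 ± 1.16 (SE), on 184 and 60 reads in all. The summed level of the 75 listed members was 20.02, 24.4 and 27.5 normalized RPM in the 14-d controls and 52.2, 54.4 and 80.5 in the low dose 14-d rats. It was 28.3, 19.99 and 22.2 in the 28-d controls and 12.1, 18.9 and 13.1 in the low dose 28-d rats. The sums of treated and control rats did not overlap at either time. Without miR-127-3p, the most abundant member, the sums overlapped at 28-d, at 8.96 to 15.5 in controls and 4.45 to 9.79 in low dose rats. The 48 members with reads that were too low to test, summed over each library, gave 6.18 to 9.23 normalized RPM in low dose 14-d, above the 2.30 to 3.53 of the 14-d controls, and 1.46 to 3.04 in low dose 28-d, overlapping the 2.33 to 4.50 of the 28-d controls.

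The summed level of the 6 listed brain miRNAs was also higher in low dose rats at 14-d, at 5.15 to 10.7 RPM and 2.65 to 3.24 in controls. It was 5.42 to 7.70 and 4.52 to 5.61 at 28-d. Nearly all of this sum was miR-9a-5p, at 4.94 to 10.6 RPM in low dose and 2.45 to 3.135 in control rats at 14-d. At 28-d miR-9a-5p was at 5.10 to 7.51 and 4.26 to 5.61, so the sum does not describe brain miRNAs as a class. 2 or 3 of the 6 were at 0 in each group, and miR-124-3p was at most 0.139 RPM. Their part in the result was not tested.

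**Figure D3:**
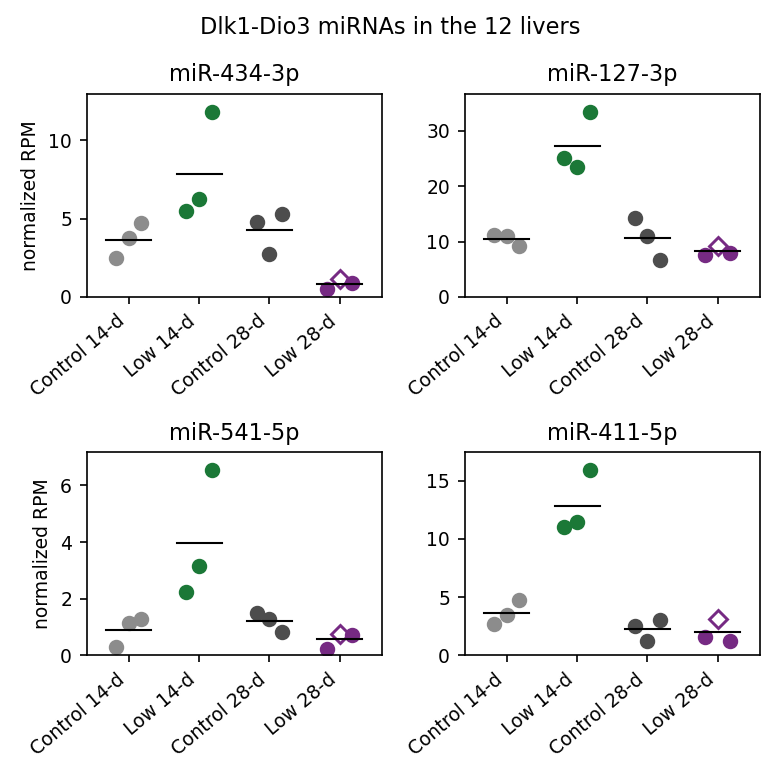
Upper quartile normalized RPM (vertical axis, from 0) of 4 Dlk1-Dio3 miRNAs in the 12 livers (horizontal axis, 4 groups), where a point is a rat, the open diamond is low dose 28-d replicate 29 and the bar is the mean of 3 rats. The low dose 14-d points lie above the 14-d controls in every panel, and the open diamond lies with the other low dose 28-d points.

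Levels of this locus also differed between times among the controls and at other doses. Scaled over all 48 libraries, miR-434-3p was at 22.5, 44.7 and 12.9 normalized RPM in the 3-d controls, the first of which had 293331 reads and a limit of detection of 10.2 RPM. It was between 14.9 and 19.97 in the 7-d controls, above the 2.73 to 5.81 of the controls at 14-d and 28-d. Low dose against controls gave log2 fold changes of 0.05 at 3-d and -0.55 at 7-d (edgeR, adjusted p = 0.960 and 0.451). The 3-d value includes that shallow control.

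In a fit of all 48 libraries the difference of miR-434-3p between 28-d and 14-d was -3.45 at low, -0.09 at middle and -0.75 at high dose. That of miR-127-3p was -1.77, 1.19 and 0.44. miR-411-5p gave -1.99, 1.74 and 0.71. The differences at the 3 doses share the controls, and none of those at middle or high dose had an adjusted p-value below 0.8856 in edgeR's test. At low dose the adjusted p-value in this fit was 0.0238 for miR-434-3p. For miR-127-3p and miR-411-5p it was 0.253 and 0.298, so these 2 did not pass at low dose either.

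Among the other lower DEMs of the difference, miR-324-3p and miR-6329 kept their call under the 4 scalings. miR-324-3p was at 1.70, 1.83 and 2.01 normalized RPM in the 14-d controls, 4.47, 5.602 and 5.07 in low dose 14-d, 2.86, 2.24 and 2.46 in the 28-d controls and 2.19, 2.85 and 3.28 in low dose 28-d. The treated rats were apart from the controls at 14-d and overlapped with them at 28-d. The difference was -1.31 ± 0.37 (SE), adjusted p = 0.208 (edgeR), and -1.32 and -1.27 without replicate 29 and with it alone.

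miR-6329 was at 25.4, 35.7 and 33.2 normalized RPM in the 14-d controls and at 69.4, 156 and 169 in low dose 14-d. At 28-d it was at 40.3, 34.9 and 31.8 in the controls and at 55.0, 77.7 and 54.9 in low dose rats. The treated rats were above their controls at both times, and the effect was 2.07 at 14-d and 0.81 at 28-d. The difference of -1.26 ± 0.41 (SE) had an adjusted p-value of 0.290 in edgeR's test, and it was -1.44 without replicate 29 and -0.94 with it alone.

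The next lower DEMs by p-value lost their call under another scaling. miR-146b-5p, induced by inflammatory signalling, was at 466, 588 and 539 normalized RPM in low dose 14-d, above all 6 controls (170 to 331). It was at 174, 377 and 183 in low dose 28-d, where replicate 29 was the high value. Its difference was -1.18 ± 0.43 (SE), adjusted p = 0.290 (edgeR), and -1.63 without replicate 29 (adjusted p = 0.00520) and -0.55 with it alone. miR-181a-1-3p (-0.90), miR-200a-3p (-0.81) and the neuronal miR-9a-5p (-1.27) had adjusted p-values of 0.290 as well. Their differences were -1.12, -0.87 and -1.45 without replicate 29 and -0.53, -0.70 and -0.94 with it alone. For miR-9a-5p the controls were higher at 28-d than at 14-d by 1.83-fold without overlap. The low dose rats differed by 1.31-fold with overlap.

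The higher DEMs of the difference rested on replicates 28 and 30, except miR-195-5p (0.65, and 0.64 with replicate 29 alone). None of the 8 higher DEMs passed the adjustment in the 12 libraries (edgeR, adjusted p = 0.290 to 0.299). With no filter on low counts miR-100-5p (adjusted p = 0.00105), miR-501-3p (0.00105) and miR-19a-3p (0.00796) passed in edgeR's test, as did miR-19a-3p and miR-501-3p in DESeq2's Wald test (adjusted p = 0.0315 for both). With replicate 29 alone none was a DEM and miR-100-5p and miR-450b-5p changed sign.

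miR-100-5p, of the miR-99 and miR-100 family, was at 236, 254 and 180 normalized RPM in the 14-d controls, 187, 159 and 116 in low dose 14-d, 214, 237 and 203 in the 28-d controls and 850, 105 and 807 in low dose 28-d. Replicates 28 and 30 were above and replicate 29 below the other 9 libraries. The difference was 1.96 ± 0.73 (SE), adjusted p = 0.290 (edgeR), 2.46 without replicate 29 (adjusted p = 0.000261) and -0.52 with it alone.

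miR-501-3p was at 11.4, 10.8 and 8.83 normalized RPM in the 14-d controls, 7.49, 3.06 and 5.40 in low dose 14-d, 7.59, 11.9 and 9.82 in the 28-d controls and 31.7, 6.75 and 24.5 in low dose 28-d. Again replicates 28 and 30 were above all other libraries and replicate 29 was not. The difference was 2.07 ± 0.65 (SE), 2.49 without replicate 29 and 0.44 with it alone. In the middle dose libraries at 14-d and 28-d, on the scale of all 48 libraries, it was between 39.1 and 51.2.

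miR-19a-3p and miR-19b-3p, which share a seed and belong to the growth-promoting miR-17 to miR-92a cluster, were lower in low dose rats than in controls at 14-d (-1.19 and -0.87). miR-19a-3p was at 90.2, 39.1 and 50.4 normalized RPM in the 14-d controls, 19.5, 30.1 and 29.1 in low dose 14-d, 48.2, 51.5 and 56.1 in the 28-d controls and 82.6, 33.5 and 73.5 in low dose 28-d. The treated rats were below the controls at 14-d, while at 28-d replicates 28 and 30 were above them and replicate 29 below. The differences of the pair were 1.47 ± 0.49 and 0.98 ± 0.41 (SE), with 1.77 and 1.22 without replicate 29 and 0.56 and 0.36 with it alone. Of 15 tested members of the 2 miR-17 type clusters they were the only DEMs.

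The other 4 higher DEMs were miR-511-5p (1.23), the cell cycle linked miR-503-3p (1.15) and miR-450b-5p (1.05) of the miR-322 cluster on the X chromosome, and miR-195-5p (0.65). They were 1.52, 1.403, 1.39 and 0.66 without replicate 29 and 0.34, 0.43, -0.05 and 0.64 with it alone. In miR-503-3p and miR-195-5p the controls differed between the times without overlap, by 1.56-fold and 1.79-fold, and the low dose rats by 1.42-fold and 1.14-fold with overlap. The controls of miR-195-5p were at 725, 639 and 657 normalized RPM at 14-d and 467, 378 and 280 at 28-d. The low dose rats were at 492, 460 and 383 and at 370, 387 and 413, respectively.

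**Figure D4:**
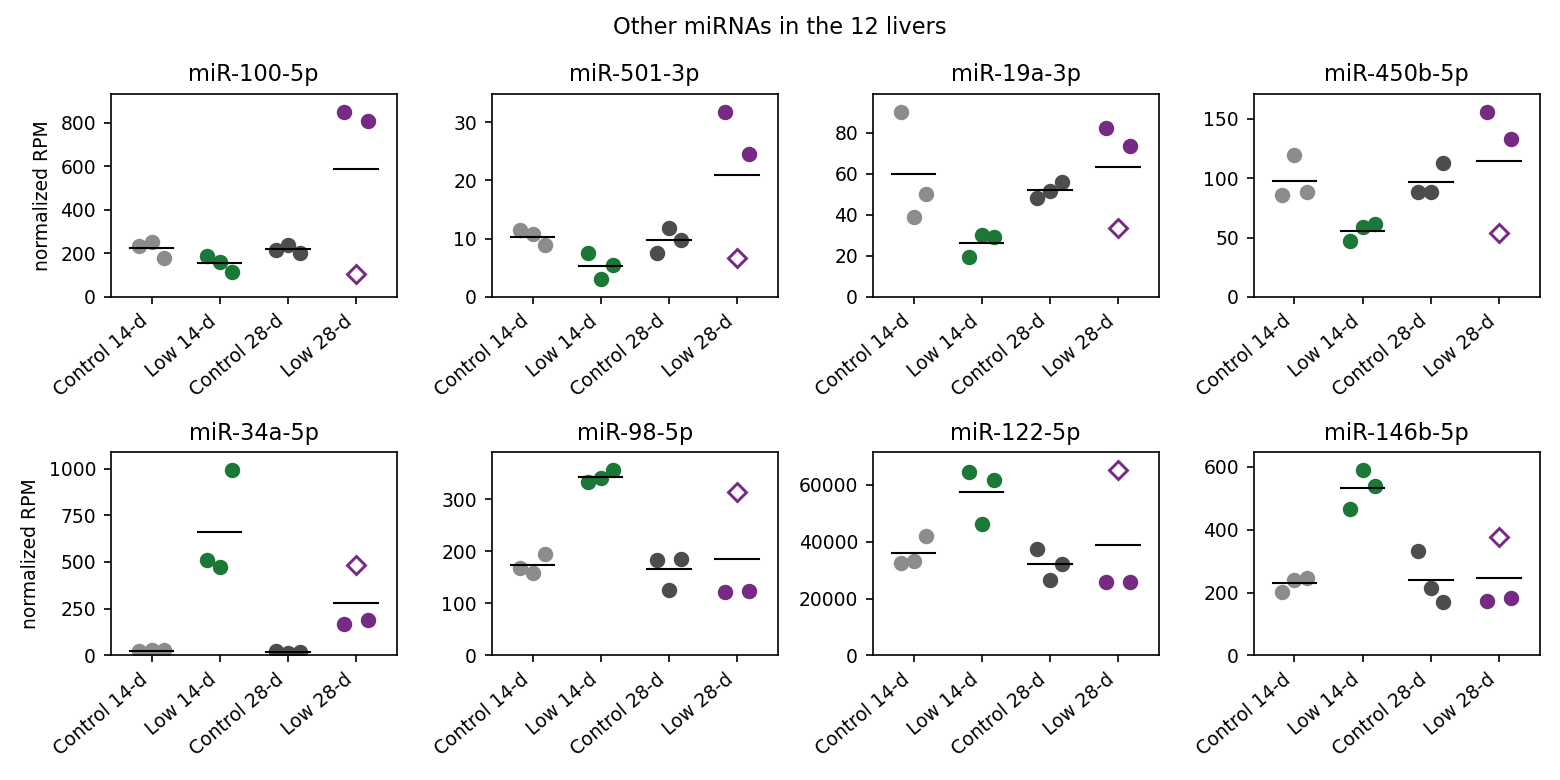
Upper quartile normalized RPM (vertical axis, from 0, each panel with its own scale) of 8 miRNAs in the 12 livers (horizontal axis, 4 groups), where a point is a rat, the open diamond is low dose 28-d replicate 29 and the bar is the mean of 3 rats. In all 8 panels the open diamond stands away from the other low dose 28-d points, towards the low dose 14-d points. These 8 were chosen for display, so this count does not show how common the pattern is. Of the 301 miRNAs tested, 186 had replicate 29 nearer to the low dose 14-d mean than to that of replicates 28 and 30. In 47, replicate 29 was over 2-fold from the mean of replicates 28 and 30.

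miR-34a-5p, a direct target of p53, had the largest effect past the adjusted threshold at 28-d and the second to miR-6321 (4.91) at 14-d. It was at 21.02, 28.4 and 26.7 normalized RPM in the 14-d controls, 512, 474 and 990 in low dose 14-d, 22.8, 13.7 and 20.7 in the 28-d controls and 166, 483 and 188 in low dose 28-d. Treated and control rats were far apart at both times, and replicate 29 was within the 14-d range. The effect was 4.70 ± 0.46 at 14-d and 3.87 ± 0.44 (SE) at 28-d. The difference of -0.82 ± 0.56 (SE) had an adjusted p-value of 0.455 (edgeR), against -1.48 without replicate 29 (adjusted p = 0.0252) and -0.03 with it alone. With TMM normalization and without replicate 29 the adjusted p-value was 0.0563.

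miR-122-5p, a hepatocyte-enriched miRNA, was at 64390, 46120 and 61680 normalized RPM in low dose 14-d and at 25850, 65010 and 25650 in low dose 28-d, beside 26580 to 41940 in the 6 controls. Replicate 29 was again with the 14-d rats, and replicates 28 and 30 were below all 6 controls on this scale. In RPM without normalization, replicates 28 and 30 were at 31130 and 30540, within the 27360 to 40720 of the 6 controls. The difference was -0.40 ± 0.43 (SE), adjusted p = 0.659 (edgeR), -0.99 without replicate 29 (adjusted p = 0.0119) and 0.35 with it alone. Without replicate 29, miR-122-5p was not among the DEMs that held under all 4 scalings. miR-455-3p, also named by the study, had a difference of 0.06 ± 0.54 (SE), with effects of -1.05 at 14-d and -0.98 at 28-d. Its treated and control rats overlapped at both times. In edgeR's fit of all 48 libraries these effects had adjusted p-values of 0.1655 and 0.3705. The SE in that fit was wider, at 0.78 for the difference, so these p-values do not describe the fit of the 12 libraries. The study, which names no adjustment, reported miR-455-3p as lower at low dose at both times.

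Results for let-7 and for the miR-99, miR-100 and miR-125 families depended on replicate 29. Of the 9 guide strands with the let-7 seed, which hold down growth genes, 5 were higher DEMs at 14-d (23.3% over all 301) and 0 at 28-d. None was a DEM of the difference, where their median was -0.38. Without replicate 29, 7 of the 9 were lower DEMs (25.6% over all 301) and the median was -0.74, beside -0.26 over all 301, while with TMM normalization as well it was 2 of 9 (13.6% over all 301) and -0.50, beside -0.02. With replicate 29 alone the median was 0.04.

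miR-98-5p of this family was at 333, 341 and 355 normalized RPM in low dose 14-d and at 121, 313 and 123 in low dose 28-d. The 6 controls were between 125.3 and 194, so that on this scale replicates 28 and 30 were just below and replicate 29 above them. The normalization factors of replicates 28 and 30 were 1.20 and 1.19, the highest of the 12 libraries, which lowers their normalized values. Its difference was -0.81 ± 0.45 (SE), adjusted p = 0.377 (edgeR), and -1.42 without replicate 29 (adjusted p = 0.00358). With replicate 29 alone it was -0.06.

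Of the 9 tested members of the miR-99, miR-100 and miR-125 families, 1 was a higher DEM of the difference (2.66% over all 301), with a median of 0.50, and 5 with TMM normalization (6.98% over all 301, median 0.78). Without replicate 29, 5 were higher and 2 lower DEMs (8.31% and 25.6% over all 301) with a median of 0.79, and with replicate 29 alone the median was -0.31. miR-99b-5p was at 3514, 916 and 3258 normalized RPM in low dose 28-d, and miR-125b-5p at 3462, 1080 and 3590. The other 9 libraries were between 1148 and 1877 for the first and between 858 and 2237 for the second, so that replicates 28 and 30 lay above both ranges.

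In the lists of other cell types the DEMs of the difference are read against 11.6% over all 301. Of 7 stellate cell and smooth muscle miRNAs 0 were DEMs (median 0.17, and 0.46 without replicate 29), of 4 red blood cell miRNAs 0 (median -0.39), of 2 endothelial miR-126 strands 0 (median -0.10) and of 5 miRNAs of the miR-29 family 0 (median -0.10). Of 7 leukocyte and inflammation miRNAs 1 was lower, miR-146b-5p (median 0.04), and of 11 epithelial and bile duct miRNAs 1 was lower, miR-200a-3p (median -0.36). Of 6 hepatocyte-enriched miRNAs 0 were DEMs (median -0.39), and without replicate 29 it was 3 lower (median -0.58).

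Without replicate 29, where 8.31% of all 301 were higher and 25.6% lower DEMs, some of these lists changed. The epithelial list then had 3 higher DEMs, miR-200b-3p, miR-429 and miR-96-5p, and 2 lower ones. miR-143-5p of the stellate list and miR-29a-3p were higher and miR-486 of the red blood cell list was lower, and these 6 held under all 4 scalings. miR-200b-3p was at 688, 95.9 and 941 RPM in low dose 28-d, so replicate 29 was far below the other 2 rats. The 6 were named after their values were seen.

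Among the other lists, DEMs of the difference were 1 of 11 miR-30 miRNAs (miR-30a-5p, lower, list median -0.24), 1 of 6 miR-466 miRNAs (miR-466c-5p, lower, 0.33), 1 of 7 miR-33, miR-103, miR-107 and miR-378 miRNAs (miR-378b, lower, -0.16), 1 of 7 in the miR-15 and miR-16 family (miR-195-5p, higher, 0.19) and 1 of 7 in the miR-322 list (miR-503-3p, higher, 0.29), which does not hold miR-450b-5p. None was found among 2 miR-34, 6 miR-26 and miR-101, 9 miR-23, miR-27 and miR-24, 2 muscle and 1 pancreas miRNAs, with medians of -0.40, -0.40, -0.17, -0.69 and -0.10. Without replicate 29 the miR-26 and miR-101 list had 4 lower DEMs, the miR-30 list 3, the list with miR-33 and miR-378 also 3, and the miR-466 list 2.

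The summed level of the leukocyte list was 3403 to 3924 RPM in low dose 14-d and 3740 to 6157 in low dose 28-d, beside 4459 to 4966 and 4985 to 6008 in the controls. That of the epithelial list was 4783 to 5967 and 3706 to 4953 in low dose rats and 3803 to 4905 and 2721 to 3898 in the controls, with the ranges at 28-d lying lower, and overlapping, in both. None of the 12 leukocyte markers was at 0 in a whole group, and of the 16 epithelial markers 1 or 2 were. Their part in the differences above was not tested.

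**Figure D5:**
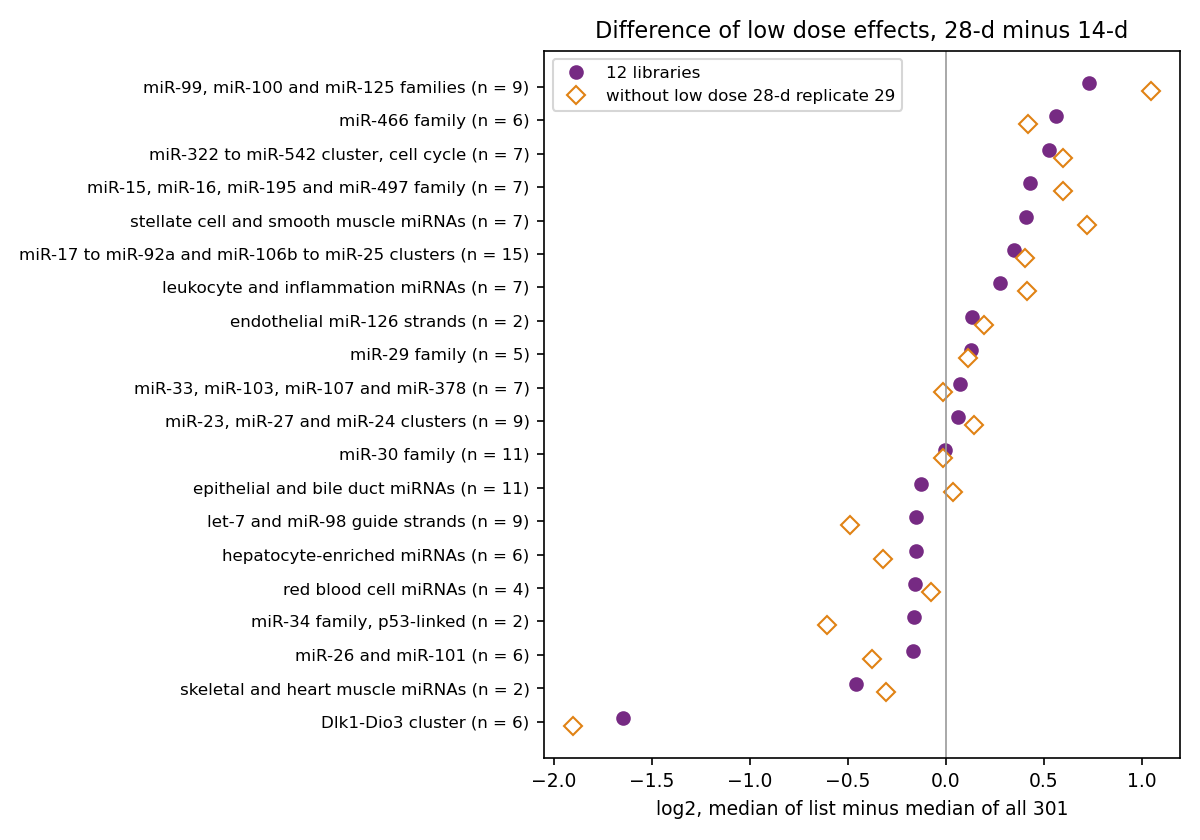
Median difference of treatment effects of each list of miRNAs minus the median of all 301 miRNAs (horizontal axis, log2) for the lists with 2 or more members tested (vertical axis), with all 12 libraries (filled circles) and without low dose 28-d replicate 29 (open diamonds). The Dlk1-Dio3 cluster lies lowest in both, at -1.65 and -1.90, and the miR-99, miR-100 and miR-125 families highest, at 0.73 and 1.05.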

How the data were processed

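Per the labels and the study's methods, small RNA libraries of 48 rat livers were sequenced on an Illumina HiSeq2000. The authors kept reads of 18 to 25 bases, used miRDeep2 with miRBase release 21 and deposited raw counts per mature miRNA and precursor, not normalized, filtered or pooled. The submitters' processing notes name FastQC and the genome build rn5.

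Here the precursor row with the most reads represented each mature miRNA. The 301 miRNAs that reached 5 RPM in 3 or more of all 48 libraries hold at least 99.99% of the counts in each of the 12 libraries used. A single fit of the 12 libraries with 1 mean per group was made in edgeR 4.0.16 (R 4.3.3), with upper quartile normalization, the quasi-likelihood F-test and Benjamini-Hochberg adjustment over the 301 miRNAs. Each SE is the log2 fold change divided by the square root of F. Permuting 3 rats against 3 cannot give a 2-sided p-value under 0.1, so no permutation test was used. The scripts were tested on simulated data. Normalized RPM are counts per 1000000 of the effective library size.

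The miRNAs named are, in each direction, the 10 of smallest p-value among the DEMs of the difference (8 in the higher direction), 3 that the study names, and up to 4 of smallest p-value from each of 22 lists, which have no test of their own. Others belong to counts of 5 or fewer and were named after their values were seen. The comparison, its members and the lists were chosen with earlier results of these data known.

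Alternatives were TMM, DESeq2's size factors, library size alone, other filters, DESeq2 1.42.0, limma 3.58.1 with voom, all 48 libraries in the fit, all 12 controls pooled, the mean of precursors and each library left out. Python 3.11.15, pandas 2.3.3 and numpy 2.4.6 made the tables.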

Additional observations from a re-analysis of the deposited data

Results flagged for a closer look

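The effect of low dose TAA differed between 28-d and 14-d past the adjusted threshold of the test of the difference itself for 2 miRNAs. The difference was -3.45 on the log2 scale for miR-434-3p and -1.77 for miR-127-3p. Treated rats were higher than controls at 14-d in both, and at 28-d miR-434-3p was lower in 3 of 3 treated rats than in every control, while miR-127-3p overlapped with the controls.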

How the results depend on the processing

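No paired analysis was possible because the running numbers of the animals are unique and the groups compared share none. The 2 settings without or with only replicate 29, and those that combine its absence with another scaling or tool, were chosen after the data were seen. Where a cause is not given, the cause was not tested.

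The 2 adjusted calls of the difference became 1 with TMM normalization, DESeq2's size factors, library size alone, a minimum of 5 RPM in every library (miR-127-3p) or in 3 of the 12, and a fit of all 48 libraries, 6 with no filter (3 higher), 4 in DESeq2's Wald test (2 higher) and 0 with pooled controls or replicate 29 alone. Without replicate 29 they were 42 with TMM normalization, 42 with DESeq2's size factors, 47 with library size and 60 in the Wald test. Leaving out 1 library gave 0 to 68, with 68 without low dose 28-d replicate 29 and 0 without 14-d control 13 or 14, 28-d control 16 or low dose 28-d replicate 28 or 30. The 35 DEMs became 23 with the minimum in 3 of the 12 libraries and 21 with replicate 29 alone, and without it 81, 83, 76 and 79 in the order above. Leaving out 1 library gave 20 (without low dose 28-d replicate 30) to 102 (without 29).

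The adjusted calls at 14-d were 21 (without control 13) to 89 and the DEMs 83 to 99 with 1 library left out, and 61 DEMs with the minimum in every library. At 28-d the 5 adjusted calls became 2 with TMM normalization, 9 with library size, 11 with no filter, 9 with the minimum in every library, 13 in the Wald test, 11 with all 48 libraries and 53 with replicate 29 alone, and 21, 22, 31 and 28 without it. Leaving out 1 library gave 2 to 17 (14 without 28-d control 16), and 30 to 52 DEMs. The 41 DEMs became 67 with no filter and 96 with replicate 29 alone.

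Low dose 28-d against 14-d had 29 adjusted calls, and 15 with library size, 13 and 14 with the minimum in every library and in 3 of the 12, 0 with replicate 29 alone, and 85, 92, 84 and 94 without it. Leaving out 1 library gave 4 to 109, and 50 to 119 DEMs. The 74 DEMs became 43 with the minimum in every library and 28 with replicate 29 alone. The controls had 0 adjusted calls, and 3 with the minimum in every library, 4 in the Wald test, 1 with all 48 libraries, and 6 and 11 without replicate 29 with library size and in the Wald test. Leaving out 1 library gave 0 to 6 calls and 15 to 32 DEMs, the highest without 28-d control 16. The 20 DEMs became 34 with no filter.

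With replicate 29 alone the sign reversed for miR-100-5p (-0.52), miR-450b-5p (-0.049), miR-122-5p (0.35), miR-194-3p (0.05), let-7a-5p (0.041), let-7d-5p (0.045), miR-29a-3p (-0.061), miR-101b-3p (0.056), miR-99b-5p (-0.41), miR-99a-5p (-0.31), miR-125b-5p (-0.40), miR-96-5p (-0.12) and miR-378a-5p (0.009). With pooled controls it reversed for miR-195-5p (-0.19), miR-101a-3p (0.019) and miR-455-3p (-0.21). The difference of miR-455-3p was also -0.007 without replicate 29 with TMM normalization, and -0.28 to 0.55 with 1 library left out. Depth limits the Dlk1-Dio3 members, of which 48 with reads were too low to test.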
